A study of Mus musculus with 30 samples.

Results

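Collagen genes were taken from the RNA-seq table as all genes whose symbol consists of Col, a number, the letter a and a number. This rule used no measured value and found 44 of the 22477 genes in the table. Expression was measured in mouse secondary induced pluripotent stem cells (iPSCs) of 1 line, which carry transgenes for the reprogramming factors OCT4, SOX2, KLF4 and cMYC (OSKM) that doxycycline (dox) switches on, GFP in place of 1 Nanog allele and a constitutive nuclear RFP. Cells cultured in serum/LIF were moved for at least 24 h to 2i/LIF. This medium has inhibitors of MEK and GSK3 and holds cells in a naive state. Samples were taken at 0 h and at 24, 36, 48, 60, 72 and 96 h after 2i/LIF was withdrawn in N2B27. Cells withdrawn for 0, 24, 48 or 96 h were also re-seeded for 48 h in serum/LIF, without dox (–dox) or with dox (+dox). The 15 conditions had 2 replicates each, 30 samples in all, and every condition carries the same transgenes and reporters.

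The table gives every gene 1 FPKM value (fragments scaled to transcript length and library size) for each condition, combined from the replicates. Replicate values are not part of it, so no value below has a spread, an interval or a test, and the study calls its replicates biological without saying for RNA-seq that they were separate cultures. A collagen gene was counted as higher or lower when the values of a pair of conditions differed at least 2-fold and the larger was at least 1 FPKM. The sum over all genes ran from 603278 to 832607 FPKM among the conditions. Read depth is known only roughly, from the smallest steps between low values. A 5 kb transcript at 1 FPKM corresponds to 74.8 to 105.7 such steps at the time points and in the 48 and 96 h re-seeded conditions, and to 236.6 to 265.4 in those re-seeded from 0 and 24 h, so values far under 1 FPKM rest on few fragments. The iPSC line was maintained on mouse embryonic fibroblast feeders. For the colony assay the methods give gelatin as the surface during withdrawal and feeders after re-seeding, and for the RNA-seq samples they name no surface.

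Collagens are the main structural proteins of the extracellular matrix. Their alpha chains wind around each other into a stiff helix, and chains of different genes often share a molecule, as Col1a1 and Col1a2 do in type I and Col4a1 and Col4a2 in type IV collagen. Fibrillar collagens build the fibrils of connective tissue and are made in quantity by fibroblasts, whereas type IV collagen and collagen XVIII belong to basement membranes, the sheets of matrix under epithelia that form early in the embryo.

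The upstream sequences of 3 fibrillar genes with their highest value at 0 h and of Col18a1, with its lowest value there, are shown. They serve to compare what lies before their starts. Col1a1, Col5a2, Col12a1 and Col2a1 had no entry and are named only. They come from RefSeq (GRCm38.p6, the assembly of mm10), in which 35 of the 44 collagen genes had an entry. Bases annotated as exon in any transcript were left out. All are printed 5′ to 3′ on the strand of the gene, in lower case with motif matches in capitals. The motifs searched, on both strands, were the GC box (GGGCGG), the CCAAT box (CCAAT), the octamer (ATGCAAAT), which is the sequence bound by POU factors such as OCT4, and the TATA box (TATAAA). Col1a2 (chr6:4505370-4505492, plus strand) is represented by the 123 bases that end 126 bases before its RefSeq start. Gencode M21 annotates a further Col1a2 start upstream of this window, so the stretch lies inside the gene bounds given below. Col3a1 (chr1:45311288-45311537, plus strand) and Col5a1 (chr2:27886175-27886424, plus strand) are shown with 250 bases, and Col18a1 (chr10:77166549-77166780, minus strand) with 232 bases before the upstream one of its annotated starts.
Col1a2: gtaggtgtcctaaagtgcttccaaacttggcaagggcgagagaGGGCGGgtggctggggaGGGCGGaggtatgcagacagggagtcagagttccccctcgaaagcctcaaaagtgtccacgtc
Col3a1: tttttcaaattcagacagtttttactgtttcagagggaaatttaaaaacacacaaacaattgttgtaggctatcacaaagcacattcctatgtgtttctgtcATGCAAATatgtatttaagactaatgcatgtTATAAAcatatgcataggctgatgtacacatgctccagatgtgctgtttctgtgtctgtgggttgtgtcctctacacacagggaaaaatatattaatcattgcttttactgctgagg
Col5a1: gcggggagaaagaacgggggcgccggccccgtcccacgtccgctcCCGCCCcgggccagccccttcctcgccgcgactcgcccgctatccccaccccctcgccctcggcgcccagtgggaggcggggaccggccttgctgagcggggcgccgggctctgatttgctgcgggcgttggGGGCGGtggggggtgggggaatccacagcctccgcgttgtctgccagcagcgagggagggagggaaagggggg
Col18a1: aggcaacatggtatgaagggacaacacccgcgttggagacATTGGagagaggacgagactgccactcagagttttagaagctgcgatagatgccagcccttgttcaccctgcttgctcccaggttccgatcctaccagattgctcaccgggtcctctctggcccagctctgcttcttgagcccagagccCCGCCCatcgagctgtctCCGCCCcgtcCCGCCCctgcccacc

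The GC box occurred 2 times in the Col1a2 window, 2 times in that of Col5a1 and 3 times in that of Col18a1, which also held 1 CCAAT box. The Col3a1 window held neither, and had 1 octamer and 1 TATA box. A full window of 250 bases before a RefSeq start of Col1a2 also held a CCAAT box, which the printed stretch does not include. The GC content of the Col3a1 window was 35.2%, against 76.4% for Col5a1, 59.3% for Col1a2 and 60.8% for Col18a1. Among the 250 bases before all 32851 RefSeq starts, 32.7% held a GC box, 33.8% a CCAAT box, 1.60% an octamer and 12.4% a TATA box. Of 38 such windows of 35 collagen genes, 22 held a GC box, 13 a CCAAT box, 2 an octamer (Col3a1 and Col25a1) and 5 a TATA box. These matches describe the letters in the windows and were not related to binding.

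Col4a1 and Col4a2 lie head to head on chromosome 8 and are transcribed in opposite directions, and their annotated first exons share 22 bases (chr8:11312805-11312826). The shared stretch is shown because it is the whole distance between these starts, and it contains 1 GC box.
Col4a1 and Col4a2, plus strand: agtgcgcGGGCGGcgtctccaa

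Of the 44 collagen genes, 12 reached 10 FPKM in at least 1 condition, 15 reached between 1 and 10 FPKM and 17 stayed under 1 FPKM in all 15 conditions. Over all genes of the table, 66.1% reached 1 FPKM and 40.3% reached 10 FPKM, against 61.4% and 27.3% of the collagen genes. The 12 genes were the fibrillar Col1a1, Col1a2, Col2a1, Col3a1, Col5a1, Col5a2 and Col11a1, the basement membrane genes Col4a1 and Col4a2, Col6a1, Col12a1 and Col18a1. Col8a1 was just under this limit with 9.998 FPKM. The summed FPKM of the 44 genes was 774.4 at 0 h, between 107.7 and 203.7 from 24 to 96 h, and between 124.6 and 525.6 in the re-seeded conditions.

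**Figure D1:**
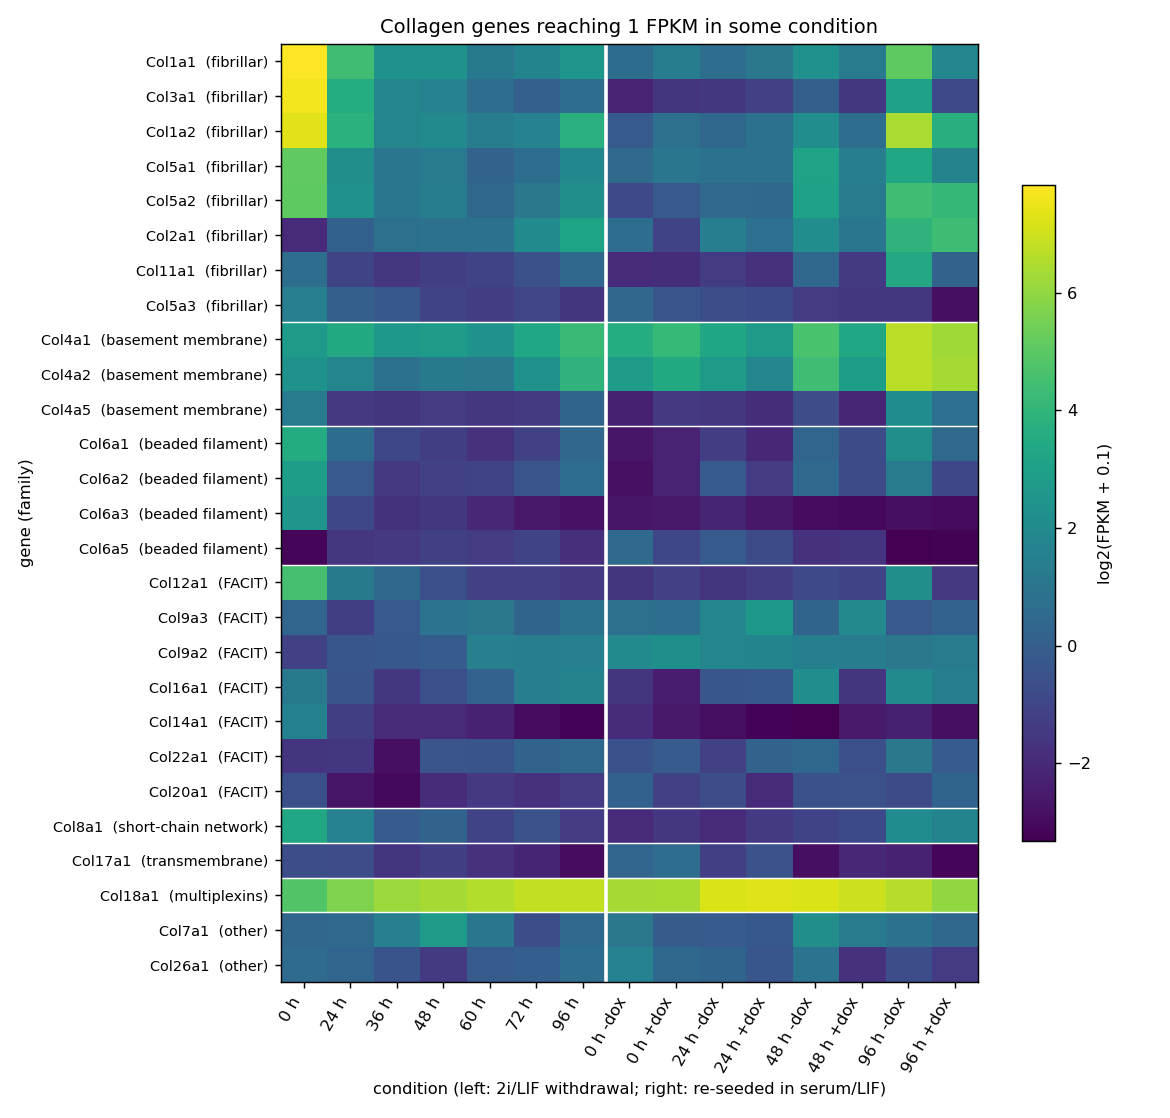
Expression of the 27 collagen genes that reached 1 FPKM, as log2(FPKM + 0.1), in rows grouped by family, with the 7 time points on the left and the 8 re-seeded conditions on the right. Col1a1, Col1a2 and Col3a1 are brightest at 0 h, Col18a1 is bright in every column, and Col4a1 and Col4a2 are brightest in the 96 h re-seeded cells.

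Different collagen genes led in the 0 h samples, in the withdrawn cells and in the cells re-seeded from 96 h. At 0 h, Col1a1, Col1a2 and Col3a1 made up 76.1% of the summed collagen FPKM. From 36 h to 96 h, Col18a1 alone made up between 54.9% and 75.1%. In the cells re-seeded from 96 h, Col4a1 and Col4a2 made up 39.4% without dox and 51.9% with dox. The gene with the highest value was Col1a1 at 0 h, Col18a1 from 24 to 96 h and after re-seeding from 0, 24 and 48 h, Col4a1 in 96 h –dox and Col4a2 in 96 h +dox.

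**Figure D2:**
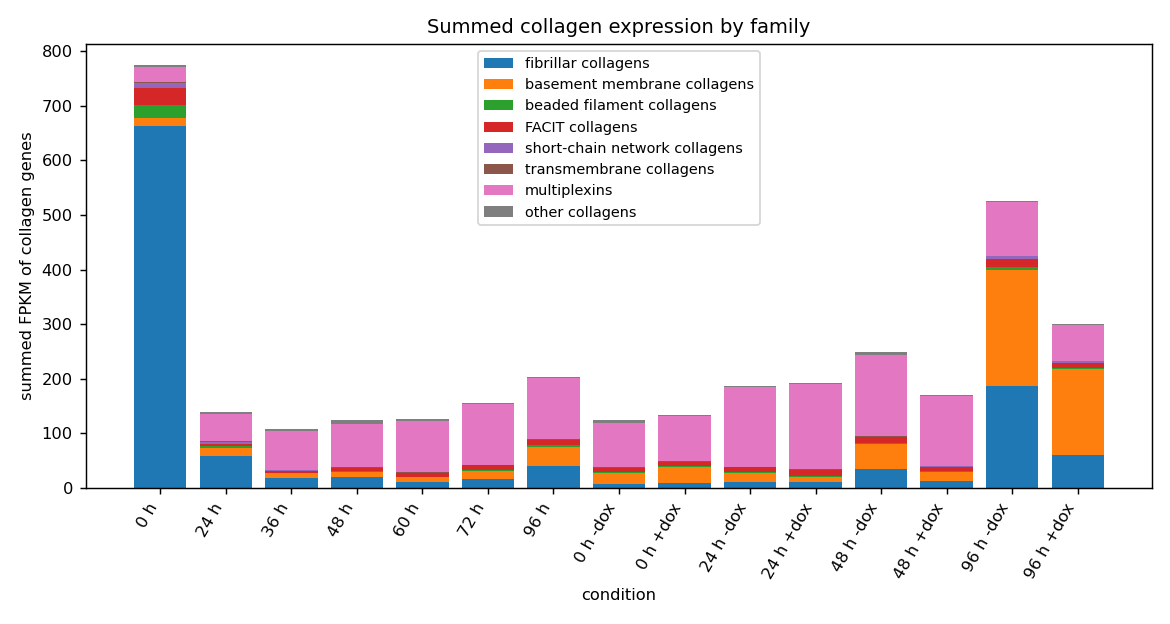
Summed FPKM of the collagen genes in each of the 15 conditions, stacked by family. Fibrillar genes fill most of the bar at 0 h (663.3 of 774.4 FPKM), multiplexins (Col18a1 and Col15a1) most of it from 36 to 96 h, and basement membrane collagens take 212.5 FPKM in 96 h –dox.

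The first comparison asks how collagen expression differs between the 0 h samples and those taken 24 h after 2i/LIF withdrawal. Of the 22 collagen genes that reached 1 FPKM at either time, 16 were at least 2-fold lower at 24 h, where 14.3% of all 12884 genes measured were, and 1 was at least 2-fold higher (8.64% of all genes). The median log2 ratio was -2.24 over these collagen genes and -0.01 over all genes. Of 8 fibrillar genes, 7 were lower and 1 was higher. All 3 measured type VI genes, all 4 FACIT genes (collagens that attach to the surface of fibrils) and Col8a1 were lower, while 2 of 3 type IV genes and Col18a1 differed less than 2-fold.

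Type I collagen is the main collagen of skin, bone and tendon, and Col1a1 encodes its more abundant chain. Col1a1 (mm10 chromosome 11, 94936224 to 94953042) had 228.7 FPKM at 0 h and 20.96, 5.11, 5.00, 2.204, 3.14 and 5.64 FPKM at the 6 later times in order. Col1a2 (chromosome 6, 4504814 to 4541544), which encodes the partner chain, had 160.0, 14.1, 3.28, 3.80, 2.56, 2.96 and 13.6 FPKM over the same 7 times. Both were highest at 0 h, by 10.9-fold and 11.4-fold over 24 h, and both were lowest at 60 h. They separated at 96 h, where Col1a2 was 1.03-fold under its 24 h value and Col1a1 was 3.72-fold under its own.

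Col3a1 (chromosome 1, 45311538 to 45349706), whose product forms fibrils together with type I collagen in soft tissues, had 200.8, 12.0, 3.40, 2.96, 1.47, 0.968 and 1.47 FPKM from 0 to 96 h. It was 16.8-fold lower at 24 h than at 0 h and a further 8.16-fold lower at 96 h. Unlike Col1a2, it had no value at 72 or 96 h above that at 48 h. Col5a1 and Col5a2, whose type V product is built into type I fibrils and limits their width, started from 34.5 and 34.0 FPKM and were 7.76-fold and 7.00-fold lower at 24 h. Col5a1 had 4.44, 1.97, 2.33, 1.07, 1.56 and 3.56 FPKM from 24 to 96 h, and Col5a2 had 4.85, 2.01, 2.54, 1.29, 2.03 and 4.42 FPKM. The ratio of Col5a1 to Col5a2 lay between 0.77 and 1.02 at all 7 times.

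Among the other fibrillar genes, Col2a1 (chromosome 15, 97975602 to 98004695), the collagen of cartilage that is also made by notochord and early epithelia, ran the opposite way. From 0 to 96 h its values were 0.162, 1.01, 1.64, 1.67, 1.68, 3.95 and 8.69 FPKM. It was the only collagen gene counted as higher at 24 h than at 0 h, by 6.21-fold, and it was 8.63-fold higher again at 96 h than at 24 h. Col11a1, which joins type II collagen in cartilage fibrils, had 1.55 FPKM at the start, between 0.244 and 0.582 FPKM from 24 to 72 h and 1.28 FPKM at the end. Col5a3, the third type V chain gene, had its highest value, 2.78 FPKM, at 0 h, compared with 0.218 FPKM at 96 h.

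Among the fibril-associated and beaded filament collagens, Col12a1, Col14a1, Col6a1, Col6a2 and Col6a3 were highest at 0 h as well, whereas Col9a2 (0.362 FPKM) and Col6a5 (0.0151 FPKM) had their lowest time course values there. Col12a1 (chromosome 9, 79598991 to 79718831), a FACIT that coats type I fibrils, had 23.1, 2.17, 1.23, 0.552, 0.340, 0.343 and 0.266 FPKM over the course. Col6a1 (chromosome 10, 76708792 to 76726168), a chain of the microfibrillar type VI collagen, had 11.4, 1.42, 0.439, 0.322, 0.197, 0.350 and 1.17 FPKM. Both were far lower from 24 h on, and at 96 h Col6a1 was 1.21-fold under its 24 h value while Col12a1 was 8.15-fold under it. The partners of Col6a1 began lower, with 7.26 FPKM for Col6a2 and 5.78 FPKM for Col6a3 at 0 h. At 96 h they had parted, with 1.51 FPKM for Col6a2 and 0.0443 FPKM for Col6a3. Col14a1, another FACIT, had 2.85 FPKM at 0 h and only 0.0086 FPKM at 96 h.

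Col18a1 (chromosome 10, 77052178 to 77166548), whose product is a heparan sulfate proteoglycan of basement membranes and the source of the fragment endostatin, was the most highly expressed collagen gene of the differentiating cells. It had 28.2, 50.5, 71.4, 79.4, 94.8, 111.9 and 111.8 FPKM from 0 to 96 h. Each time up to 72 h had a higher value than the one before it, and the value at 96 h was nearly that at 72 h. The ratio of 24 h to 0 h was 1.79 and that of 96 h to 24 h was 2.21.

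Type IV collagen, the network of the basement membrane, was expressed at moderate levels throughout. Col4a1 (chromosome 8, 11198423 to 11312826) had 6.19, 10.7, 6.07, 7.20, 5.09, 9.87 and 18.7 FPKM from 0 to 96 h. Col4a2 (chromosome 8, 11312805 to 11449287) had 5.09, 3.26, 1.74, 2.17, 2.10, 5.25 and 15.1 FPKM. Both ended highest at 96 h, but in between they did not move in step although they share the 22 bases shown above. The ratio of Col4a1 to Col4a2 was 1.21, 3.29, 3.50, 3.32, 2.43, 1.88 and 1.24 at the 7 times. Col4a5 was at 2.36 FPKM at 0 h, between 0.234 and 0.283 FPKM from 24 to 72 h and at 1.11 FPKM at 96 h, and Col4a3, Col4a4 and Col4a6 stayed under 1 FPKM.

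**Figure D3:**
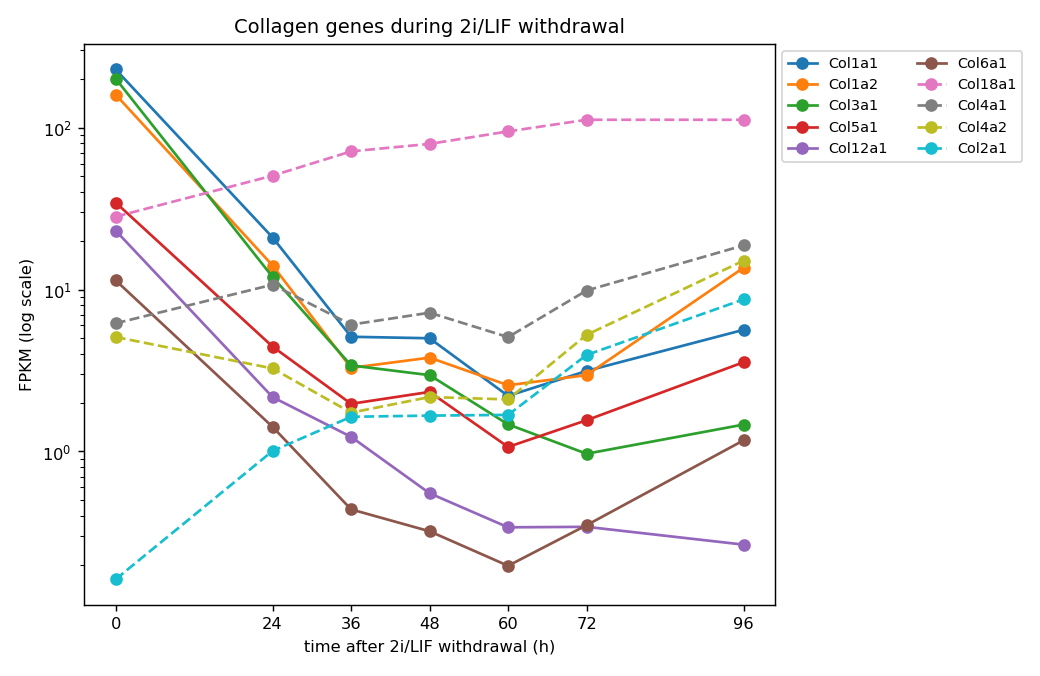
FPKM of 10 collagen genes (log axis) against hours after 2i/LIF withdrawal, with 1 point per time and no replicate spread in the table. The 6 genes in solid lines are highest at 0 h (Col1a1 at 228.7 FPKM) and lowest between 60 and 96 h, while the 4 in dashed lines are highest at 72 or 96 h.

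Between 24 and 96 h, 10 of 21 measured collagen genes were at least 2-fold higher at 96 h (20.5% of all genes) and 4 were at least 2-fold lower (16.3%). The median log2 ratio was 0.80, against -0.02 over all genes. The 10 were Col2a1, Col11a1, Col4a2, Col4a5, Col6a2, Col18a1 and the FACIT genes Col9a2, Col9a3, Col16a1 and Col22a1, and the 4 were Col1a1, Col3a1, Col12a1 and Col8a1. Col7a1, the anchoring fibril collagen of the skin, had its highest value in the middle of the course, with 1.37, 6.28 and 1.33 FPKM at 24, 48 and 96 h. With 36 h in place of 24 h, chosen after the data were seen, the median against 0 h was -3.14.

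The genes that process and surround collagen were read from lists. At 24 h against 0 h, 6 of 9 measured genes for propeptide cleavage and crosslinking, 9 of 10 fibril-associated matrix genes and 7 of 8 genes for collagen degradation and its inhibitors were at least 2-fold lower, and none of these was higher. Lox, the enzyme that crosslinks collagen fibrils, had 120.8 and 17.0 FPKM at these times. Dcn, a small proteoglycan that binds type I fibrils, had 71.0 and 5.30 FPKM, and the metalloproteinase inhibitor Timp3 had 32.5 and 2.49 FPKM. Pcolce, which enhances propeptide cleavage, differed from these with 219.8 and 226.5 FPKM, as did the chaperone Hspa5 with 151.8 and 207.1 FPKM. Of the enzymes and chaperones that act in the endoplasmic reticulum, 4 of 13 measured hydroxylation genes and 1 of 6 chaperone and export genes were lower and none was higher. For each list at 24 h, the shares over all measured genes were 14.3% lower and 8.64% higher. P4ha1, a catalytic subunit of prolyl 4-hydroxylase, had 26.3 and 3.96 FPKM, whereas its partner P4hb had 414.0 and 297.4 FPKM.

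The collagen chaperone Serpinh1 (HSP47) had 82.9, 24.1, 24.6, 27.2, 46.9, 75.2 and 193.8 FPKM from 0 to 96 h. In the time course it was highest at 96 h, where the fibrillar sum was 40.1 FPKM, and not at 0 h, where that sum was 663.3 FPKM. Lox instead had its lowest value of the time course at 96 h, 1.17 FPKM. Among the basement membrane partners 3 of 9 were lower at 24 h. Nid1, the linker of laminin and type IV collagen, had 71.9 FPKM at 0 h against 3.59 FPKM at 96 h, while Lama5, a laminin chain, had 47.9 and 123.1 FPKM. Of 5 measured receptor genes, 3 were lower and 1 was higher at 24 h. The higher one was Ddr1, a collagen-binding receptor kinase of epithelial cells, with 7.54 and 15.8 FPKM.

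Markers of fibroblasts were present at 0 h together with the fibrillar collagens. Of the 16 listed, 12 were at or above 1 FPKM at 0 h and 8 at 24 h. Cdh11, a cadherin of mesenchymal cells, had 10.95, 1.71 and 0.232 FPKM at 0, 24 and 60 h, and Prrx1, chosen after its values were seen, had 8.06, 1.09 and 0.202 FPKM. At 24 h 6 of 12 measured markers were at least 2-fold lower and 2, Thy1 and Acta2, were at least 2-fold higher. The summed level of the list was 64.6 FPKM at 0 h and between 42.8 and 118.9 FPKM from 24 to 96 h. Acta2 made up 8.65 FPKM of the sum at 0 h and 97.9 of the 118.9 FPKM at 96 h. Fap, a marker of activated fibroblasts, had 0.367 FPKM and the dermal gene Dpt 0.156 FPKM at 0 h, and both were listed at 0 from 36 to 96 h. Nanog (227.1 FPKM) and Pou5f1 (199.3 FPKM), genes of pluripotent cells, were expressed in the same 0 h samples. The part of other cells in the 0 h collagen values was not tested, and in bulk samples fewer cells of a type and less RNA per cell cannot be told apart.

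The next comparison sets cells re-seeded in serum/LIF without dox against the time point from which they came. The members of each pair differ in medium and in culture time, possibly also in feeders, and these cannot be told apart. For 0 h, 15 of 26 measured collagen genes were at least 2-fold lower after re-seeding (10.1% of all genes) and 6 were at least 2-fold higher (12.0%), with a median log2 ratio of -2.75 against -0.01 over all genes. For 24 h, 8 of 16 were lower (10.6%) and 5 higher (14.9%), with a median of -0.96 against -0.05. For 48 h the balance was the other way, with 11 of 19 higher (15.3%) and 2 lower (11.5%) and a median of 1.55 against -0.01. For 96 h, 12 of 21 were higher (12.4%) and 2 lower (11.2%), with a median of 1.84 against 0.01.

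The fibrillar genes that were high at 0 h were low in the cells re-seeded from it. In 0 h –dox Col1a1 had 1.45 FPKM, Col1a2 0.788 FPKM, Col3a1 0.116 FPKM, Col5a1 1.35 FPKM and Col5a2 0.459 FPKM, and 7 of the 8 measured fibrillar genes were at least 2-fold lower than at 0 h, while Col2a1 was higher. Col1a1 differed 157.9-fold and Col1a2 203.1-fold. Col6a1 and Col12a1 followed with 0.0581 and 0.221 FPKM. The fibroblast list had its lowest sum in 0 h –dox, 23.7 FPKM, with 8 of 12 measured markers lower than at 0 h, among them Cdh11 at 0.197 FPKM, and 1 higher, Prrx2, with 1.62 FPKM at 0 h and 4.801 FPKM after re-seeding. Its part in the result was not tested. Lox was at 1.09 FPKM and Dcn at 0.0908 FPKM in the same condition. The basement membrane genes were divided. Col4a5 was 24.3-fold lower in 0 h –dox (2.36 FPKM at 0 h and 0.0971 FPKM after re-seeding), while Col18a1 was 2.86-fold higher (80.6 FPKM), Col4a1 1.94-fold higher (12.0 FPKM) and Col4a2 1.40-fold higher (7.11 FPKM).

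Without dox, each of the 7 fibrillar genes that reached 10 FPKM had a higher value the longer the cells had been withdrawn before re-seeding. Across 0, 24, 48 and 96 h –dox, Col1a1 had 1.45, 1.54, 4.97 and 33.2 FPKM and Col1a2 had 0.788, 1.23, 4.32 and 86.0 FPKM. Col5a2 had 0.459, 1.305, 8.30 and 21.3 FPKM, Col5a1 1.35, 1.75, 8.61 and 9.87 FPKM, and Col3a1 0.116, 0.247, 0.953 and 8.22 FPKM. The fibrillar sum was 7.86 FPKM in 0 h –dox, compared with 185.8 FPKM in 96 h –dox. Col2a1 followed the same order with 1.47, 2.67, 4.33 and 15.4 FPKM, and Col11a1 with 0.156, 0.291, 1.25 and 10.4 FPKM.

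Both main chains of type IV collagen had their highest values of all 15 conditions in 96 h –dox. Col4a1 had 12.0, 9.76, 24.4 and 103.7 FPKM across 0, 24, 48 and 96 h –dox, and Col4a2 had 7.11, 6.59, 21.2 and 103.4 FPKM. The chains were thus at nearly the same level in 96 h –dox, with a ratio of 1.00, where Col4a1 was 5.53-fold and Col4a2 6.86-fold above the 96 h time point. Col4a5, a chain of a separate type IV network, was at 4.26 FPKM in 96 h –dox, its highest value. Col18a1 differed from them, with 80.6, 145.5, 148.3 and 97.6 FPKM in the same order, and its 96 h –dox value was 1.15-fold under that of the 96 h time point.

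A direct comparison of 96 h –dox with 48 h –dox, chosen after the data were seen, gave 12 of 21 measured genes at least 2-fold higher (12.3% of all genes) and 2 at least 2-fold lower (9.94%), with a median log2 ratio of 1.81 against 0.00. Col1a2 was 19.9-fold, Col12a1 9.99-fold, Col3a1 8.63-fold, Col11a1 8.35-fold and Col1a1 6.67-fold higher. Col5a1 differed 1.15-fold. The lower genes were Col7a1 and Col26a1.

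Marker genes of several cell types were higher in 96 h –dox as well. Over all measured genes, 12.4% were at least 2-fold above the 96 h time point and 11.2% at least 2-fold below it. Of the fibroblast list, 8 of 12 measured genes were at least 2-fold above the 96 h time point and 2 (Thy1 and Twist1) were at least 2-fold lower, and the list's sum of 331.1 FPKM was its highest. Acta2, actin of smooth muscle and contractile cells, made up 255.2 FPKM of it, and the mesenchymal homeobox gene Prrx2 had 42.5 FPKM, while Thy1 had 0.222 FPKM, Fap 0.0285 FPKM and Dpt 0. Hand1, a transcription factor of lateral mesoderm and trophoblast, had 38.2 FPKM in 96 h –dox and between 0.123 and 3.98 FPKM in the other 14 conditions. Cdh5, the cadherin of endothelial cells, had 13.1 FPKM and between 0.0146 and 0.776 FPKM in the others. In their lists, against the 96 h time point, 2 of 3 measured mesoderm genes were higher and 1, Tbx6, was lower, and 1 of 2 measured endothelial genes was higher. Of 6 measured neurectoderm genes 2 were higher and 1, Sox1, was lower (13.3 and 0.893 FPKM). Of the endoderm list, 3 of 8 measured genes were higher and 2 were lower than at the 96 h time point. Their part in the collagen values was not tested.

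The last comparison asks how collagen expression differed with OSKM induction, by setting +dox against –dox cells of the same withdrawal time. The –dox values are those used above. At 0 h, 5 of 15 measured collagen genes were at least 2-fold lower with dox (5.61% of all genes) and 1 was at least 2-fold higher (3.62%), with a median log2 ratio of 0.02 against 0.05 over all genes. At 24 h, 1 of 12 was higher (2.87%) and 0 were lower (3.40%), with a median of -0.06 against 0.02. At 48 h, 13 of 17 were lower (6.46%) and 1 was higher (6.56%), with a median of -1.21 against -0.02. At 96 h, 10 of 21 were lower (11.1%) and 1 was higher (6.67%), with a median of -0.56 against -0.01.

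At 48 h the lower values with dox covered all 6 measured fibrillar genes, both measured type IV and both measured type VI genes. Col1a1 had 4.97 FPKM without and 2.27 FPKM with dox, Col1a2 4.32 and 1.49 FPKM, and Col2a1 4.33 and 1.98 FPKM. Col5a1 had 8.61 and 2.64 FPKM and Col5a2 8.30 and 2.27 FPKM, differences of 3.27-fold and 3.66-fold. Col11a1 had 1.25 and 0.272 FPKM. For type IV, Col4a1 had 24.4 and 9.81 FPKM and Col4a2 21.2 and 7.40 FPKM. Each of these genes was closer to its 48 h time point value with dox than without it, except Col1a1 and Col1a2. Col16a1, a FACIT, differed most among the smaller genes, with 4.36 and 0.226 FPKM, and Col26a1 had 1.80 and 0.206 FPKM. Col18a1 differed 1.17-fold (148.3 and 127.2 FPKM), and the gene that was higher with dox was Col9a3, a chain of the cartilage FACIT type IX, with 1.12 and 3.73 FPKM. Of the exonic bases of Col9a3, 6.07% overlap the antisense gene Tcfl5, and no source says whether strand was used in counting.

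At 96 h the difference with dox was uneven within the family. Col1a1 had 33.2 FPKM without and 3.47 FPKM with dox, Col1a2 86.0 and 13.2 FPKM, Col3a1 8.22 and 0.452 FPKM, and Col5a1 9.87 and 3.06 FPKM. Col11a1 had 10.4 and 1.09 FPKM, and Col12a1 4.52 and 0.263 FPKM. These 6 genes were between 3.22-fold and 18.2-fold lower with dox. In contrast Col5a2 had 21.3 and 17.3 FPKM, Col2a1 15.4 and 20.8 FPKM, Col4a1 103.7 and 74.9 FPKM, Col4a2 103.4 and 80.8 FPKM and Col18a1 97.6 and 66.0 FPKM, each within 1.48-fold of its –dox value. Type IV chains were thus the most highly expressed collagens with dox too. Col8a1, whose short-chain product forms lattices in vessel walls and the cornea, had 4.14 and 3.14 FPKM.

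**Figure D4:**
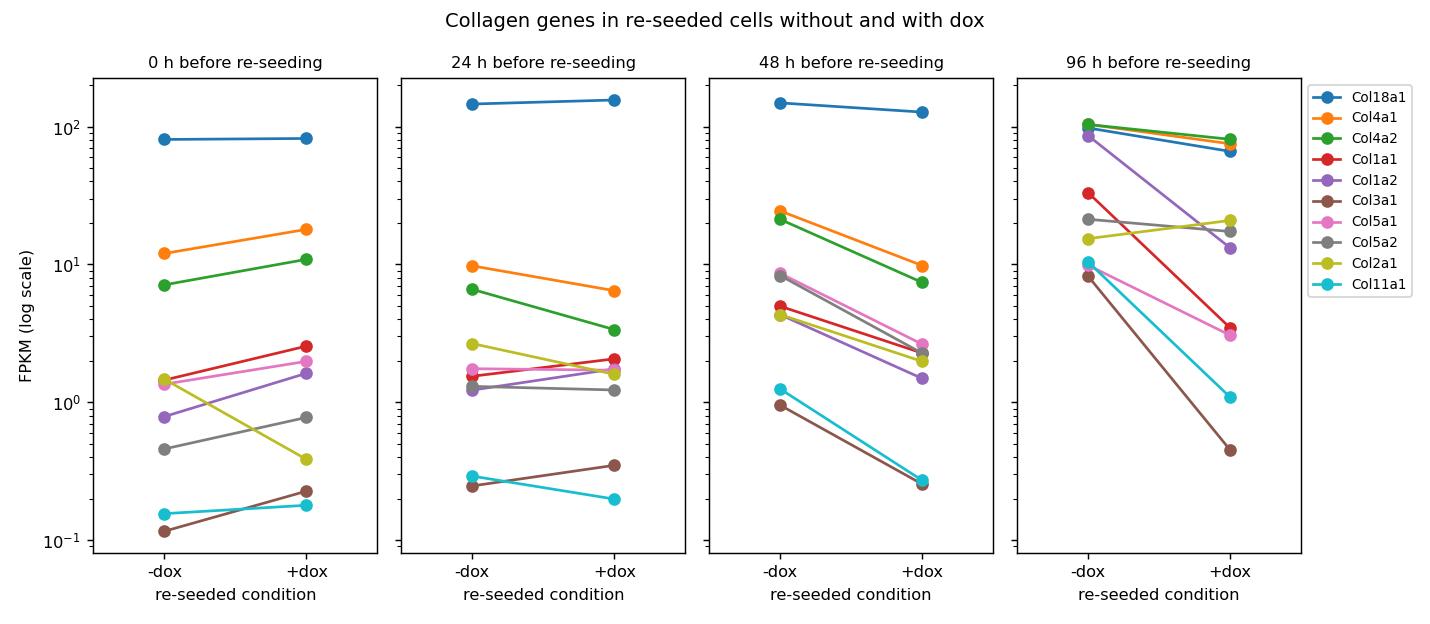
FPKM (log axis) of 10 collagen genes in cells re-seeded from 0, 24, 48 and 96 h, each line joining the –dox and the +dox value of a gene, with 1 value per condition and no replicate spread in the table. At 48 h the lines of all genes except Col18a1 fall at least 2-fold or lie under 1 FPKM on both sides, and at 96 h those of Col1a1, Col1a2, Col3a1, Col5a1 and Col11a1 fall at least 3.22-fold while Col4a1, Col4a2, Col5a2 and Col2a1 stay close to level.

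After re-seeding from 0 and 24 h, Col18a1, Col4a1 and Col4a2 differed less than 2-fold between –dox and +dox. Col18a1 had 80.6 FPKM without and 81.9 FPKM with dox at 0 h, and 145.5 and 155.7 FPKM at 24 h. Col4a1 had 12.0 and 18.0 FPKM at 0 h and 9.76 and 6.45 FPKM at 24 h, and Col4a2 had 7.11 and 10.9 FPKM at 0 h and 6.59 and 3.37 FPKM at 24 h. Col1a2 was 2.06-fold higher with dox at 0 h, with 1.62 against 0.788 FPKM. The genes lower with dox at 0 h were Col2a1 (1.47 and 0.386 FPKM), Col26a1 (2.95 and 1.23 FPKM), Col7a1 (2.02 and 0.872 FPKM), Col6a5 (1.36 and 0.420 FPKM) and Col20a1 (1.00 and 0.350 FPKM). All 5 were at low levels in both conditions.

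Of the processing genes, Serpinh1 was at least 2-fold lower at 48 h only, with 249.1 FPKM without and 71.6 FPKM with dox, and it had 390.9 and 244.7 FPKM at 96 h. Of the 13 hydroxylation genes that reached 1 FPKM, 0 were counted as higher or lower at 48 h. Over all measured genes the shares at 48 h were also small, 6.46% lower and 6.56% higher. The propeptide cleavage and crosslinking genes were divided, with 2 of 8 measured genes lower and 2 higher with dox at 48 h. At 96 h, 5 of 9 were lower (11.1% of all genes) and 4 higher (6.67%). Bmp1, the proteinase that removes the C-terminal propeptide of fibrillar collagens, was lower with dox at 48 h (10.1 and 2.61 FPKM) and at 96 h (15.1 and 5.51 FPKM). Loxl2, a crosslinking enzyme, was lower with dox at all 4 times (1.88 and 0.920, 2.71 and 1.00, 3.66 and 1.38, and 9.02 and 2.57 FPKM). Pcolce was higher with dox at 96 h (26.8 and 77.1 FPKM). The collagen uptake receptor Mrc2 had 23.1 FPKM in 96 h –dox, against 3.69 FPKM with dox. Of the basement membrane partners, Lama1 was higher with dox at 0, 48 and 96 h, with 6.17 against 16.2 FPKM at 96 h, and Nid1 was higher at 0, 24 and 48 h and lower at 96 h (41.9 and 12.1 FPKM).

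Marker genes also differed between –dox and +dox. Over all measured genes, 6.46% were lower and 6.56% higher with dox at 48 h, and 11.1% were lower and 6.67% higher at 96 h. At 96 h, 6 of 11 measured fibroblast markers were at least 2-fold lower with dox and 1, S100a4, was higher. The list sums were 331.1 and 217.4 FPKM, of which Acta2 made up 255.2 and 193.0 FPKM, and Prrx2 had 42.5 and 9.95 FPKM. Both measured mesoderm genes were lower at 96 h, Hand1 with 38.2 and 1.76 FPKM. All 3 measured mesoderm genes were lower at 48 h, T with 5.90 and 0.390 FPKM. Of 3 measured endothelial genes 2 were lower at 96 h, Cdh5 with 13.1 and 0.776 FPKM, and 1 was higher, Tek with 0.360 and 3.15 FPKM. At 48 h all 3 measured ones (Pecam1, Tek and Tie1) were higher. Of these, Pecam1 had its highest value, 56.6 FPKM, in 0 h –dox, and Tie1 reached at most 1.20 FPKM. Cdh5 and Kdr of the same list stayed under 1 FPKM at 48 h, with 0.244 and 0.782 FPKM without and 0.0482 and 0.166 FPKM with dox. Of the neurectoderm list, 2 of 6 measured genes were lower and 1 was higher at 96 h, and its only measured gene at 48 h, Nes, differed less than 2-fold. At 48 h, 3 of 8 fibroblast markers were lower, 3 were higher and the sums were 156.2 and 93.3 FPKM, of which Acta2 made up 136.4 and 60.2 FPKM. Of the endoderm list, 3 of 6 measured genes were lower at 48 h and 3 of 6 at 96 h, with Dab2, an endocytic adaptor of extraembryonic endoderm, at 21.8 and 5.19 FPKM at 48 h. Of 8 genes of pluripotent cells, 6 were higher with dox at 48 h and 4 were higher and 2 lower at 96 h. Pou5f1 (OCT4) and Sox2 were among the 6, and Pou5f1 among the 4. Dox switches on transgenes for both factors, and the single value of a gene does not separate transgene from endogenous transcripts. The part of these differences in the collagen values was not tested.

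The balance between chains of the same molecule, and between Col3a1 and Col1a2 of different molecules, also differed among conditions. The ratio of Col1a1 to Col1a2 lay between 0.86 and 1.84 in 12 conditions and was 0.41 at 96 h, 0.39 in 96 h –dox, and 0.26 with dox, so the 3 lowest ratios were those of the conditions withdrawn for 96 h. The ratio of Col5a1 to Col5a2 was 2.95 and 2.55 after re-seeding from 0 h without and with dox, and 0.46 and 0.18 after re-seeding from 96 h. It lay between 0.77 and 1.39 at the 7 time points and after re-seeding from 24 and 48 h. Col3a1 to Col1a2 was 1.25 at 0 h, 0.11 at 96 h, and 0.10 and 0.03 in 96 h –dox and +dox, and it lay between 0.14 and 0.22 after re-seeding from the earlier times. Col6a1 was at 1.97 times Col6a3 at 0 h and at 121.9 times in 96 h –dox, where Col6a3 had 0.0366 FPKM. These levels of different genes are compared per transcript length, as FPKM gives them.

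**Figure D5:**
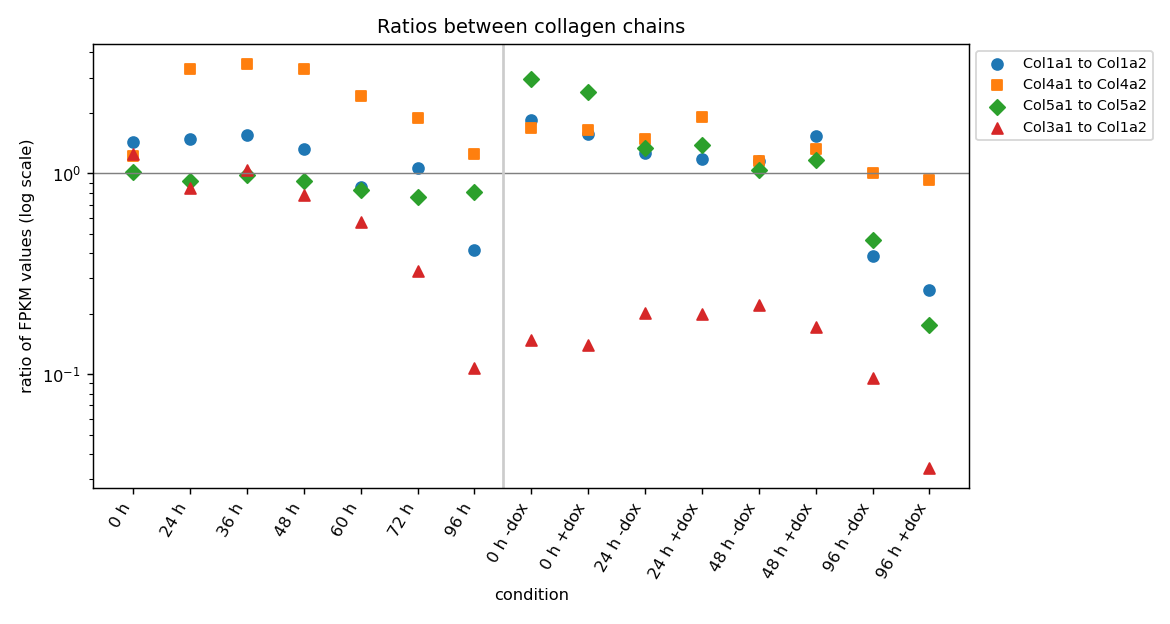
Ratio of the FPKM values of 4 pairs of collagen chains (log axis, the line marks 1) in the 15 conditions. Col1a1 to Col1a2, Col5a1 to Col5a2 and Col3a1 to Col1a2 all have their lowest point in 96 h +dox (0.26, 0.18 and 0.03), and Col4a1 to Col4a2 has its highest at 36 h (3.50).

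The collagen genes with low values filled the remaining families. Of the FACIT genes, Col9a3 was highest in 24 h +dox (6.11 FPKM), Col9a2 in 0 h +dox (4.63 FPKM), Col16a1 in 48 h –dox (4.36 FPKM), Col22a1 in 96 h –dox (2.03 FPKM) and Col20a1 in 96 h +dox (1.11 FPKM). Col26a1 was highest in 0 h –dox (2.95 FPKM) and Col6a5 in 0 h –dox (1.36 FPKM). Col17a1, the transmembrane collagen of hemidesmosomes, had its highest value in 0 h +dox (1.47 FPKM). Of the 27 genes that reached 1 FPKM, Col1a1, Col1a2, Col3a1, Col5a1, Col5a2, Col5a3, Col6a1, Col6a2, Col6a3, Col8a1, Col12a1 and Col14a1 had their highest values at 0 h. The 17 genes under 1 FPKM were Col4a6 (highest value 0.966 FPKM), Col8a2 (0.837), Col13a1 (0.806), Col11a2 (0.794), Col6a4 (0.555), Col27a1 (0.536), Col23a1 (0.491), Col15a1 (0.388), Col24a1 (0.241), Col25a1 (0.131), Col9a1 (0.107), Col10a1 (0.0968), Col4a4 (0.0595), Col6a6 (0.0574), Col4a3 (0.0392), Col28a1 (0.0294) and Col19a1 (0.0231 FPKM). The highest value lay in 96 h –dox for Col4a3, Col4a4, Col4a6, Col8a2, Col10a1 and Col13a1, and at these levels no difference between conditions was read.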

How the data were processed

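Polyadenylated RNA of the 30 samples was sequenced by the study. Per its methods and the submitters' processing notes, reads were mapped to mm10 with TopHat2 2.0.14 and Gencode M4, and transcripts of at least 200 bp and of 6 biotypes were quantified with Cufflinks 2.2.1, Cuffdiff combining the replicates of a condition. The library normalization is not given in the sources used here. The authors deposited the FPKM values as 1 table with 1 column per condition (named RPKM in its description, FPKM in the methods). The 5 columns of the authors' own calls, which give responses to dox at 4 times and a cluster, were not used, and 0 columns of sample values were left unassigned.

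FPKM were compared as deposited with Python 3.11.15, numpy 2.4.6 and pandas 2.3.3, and drawn with matplotlib 3.10.9. Groups came from the sample labels. A gene counted as higher or lower at a ratio of at least 2 with the larger value at least 1 FPKM. The medians of log2 ratios were taken over genes reaching 1 FPKM in either condition after 0.1 FPKM was added. No test could be run, because the table holds no replicates. Depth was estimated from steps between low values of single-transcript genes of at least 2.5 kb. Alternatives were another minimum, fold, added value or scaling. Positions are Gencode M21 on mm10, and upstream sequences and motif shares are from RefSeq.

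Collagen genes reaching 10 FPKM are named with their values, those between 1 and 10 FPKM by family and the rest with their highest value. Of 7 pathway and 6 marker lists (134 genes found, 5 of them by an older symbol, 1 not found), the rule allowed the 2 genes with the highest value and those with the largest ratios among genes reaching 10 FPKM to be named, and not all of these are. Other list genes, such as Prrx1, Twist1, Tbx6, Tie1, Fap and Dpt, fall outside this rule and were named after their values were seen. Sparc is in 2 lists. The members, lists and rules were chosen with earlier results of these data known.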

Additional observations from a re-analysis of the deposited data

Results flagged for a closer look

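Of the collagen genes, 3 lay at least 2-fold on opposite sides of –dox at different withdrawal times, and with 1 value per condition the difference between times was not tested. At 0, 48 and 96 h Col1a2 had log2 ratios of +dox to –dox of 1.04, -1.54 and -2.70. Its values at 0 h were 0.788 and 1.62 FPKM, far under those at 96 h, and the 2-fold difference at 0 h was lost with all conditions scaled to the same sum (0.81), with 1 FPKM added to both values (0.55), at a fold of 3 and with a minimum of 5 FPKM. The ratios of Col20a1 were -1.52 and 1.16 at 0 and 96 h on this scale. Col22a1 had 1.64, -1.08 and -1.23 at 24, 48 and 96 h. The highest value in any condition was 1.11 FPKM for Col20a1 and 2.03 FPKM for Col22a1.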

How the results depend on the processing

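No paired analysis was possible because the table holds 1 combined value per condition and no replicate columns, and for the same reason no replicate could be left out. The counts of collagen genes at least 2-fold apart depended mostly on the minimum level. In the order 24 h against 0 h, 96 h against 24 h, –dox against its time point at 0, 24, 48 and 96 h, +dox against –dox at 0, 24, 48 and 96 h, and 96 h –dox against 48 h –dox, they were 17, 14, 21, 13, 13, 14, 6, 1, 14, 11 and 14. With a minimum of 5 FPKM they were 10, 5, 11, 5, 4, 8, 0, 0, 4, 5 and 8. Without a minimum they were 30, 32, 29 for 24 h –dox, 25, 28, 21, 14, 27, 26 and 29, and within 1.5-fold of the count given for 0 h –dox. A fold of 3 gave 2 genes for dox at 0 h and 6 at 48 h. With 1 FPKM added to both values there were 7 for 48 h –dox, 0 for dox at 0 h, 0 at 24 h and 8 at 48 h, and scaling to the same sum gave 2 for dox at 24 h. No direction was reversed for the counted genes reaching 10 FPKM. Of their 82 calls, 81 were unchanged under each scaling, 66 at a fold of 3, 66 with 1 FPKM added and 54 with the minimum of 5 FPKM. The use of 36 h in place of 24 h and the comparison of 96 h –dox with 48 h –dox were chosen after the data were seen. With 36 h the medians became -3.14 against 0 h and 1.42 for 96 h. With 1 FPKM added the median of -2.24 at 24 h against 0 h became -1.43, that of -2.75 for 0 h –dox -1.26 and that of 1.55 for 48 h –dox 0.78. With the minimum of 5 FPKM the medians were -2.93 for 24 h against 0 h, -5.68 for 0 h –dox, -1.78 for 24 h –dox and 2.44 for 96 h –dox. Without replicates, the spread of any value is unknown, and among the counted genes those near 1 FPKM rest on the fewest fragments for their length.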
